A study of Mus musculus with 24 samples.

Results

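The MHC class I presentation pathway was examined here in mouse CD4+ T cells through 10 genes of a deposited table with 22009 named genes. The genes were taken by name: the heavy chains H2-K1 and H2-D1, the light chain B2m, the transporter subunits Tap1 and Tap2, the loading factor Tapbp, the immunoproteasome subunits Psmb8, Psmb9 and Psmb10, and the transactivator Nlrc5. All 10 were in the table and all 10 passed the minimum of a mean of 1 RPKM, the read count of a gene scaled to its transcript length and to the mapped reads of the library, in every comparison. The cells came from the spleen of wild-type adult C57BL/6 mice and were isolated by depleting other cells with magnetic beads, and the study's methods describe the spleen cells as pooled over mice. There were 2 resting libraries of unstimulated cells and 18 libraries of cells activated with anti-CD3 and anti-CD28, 1 at each of 4, 8, 12, 16, 20 and 24 h in each of 3 skewing conditions. Th0 cultures received nothing further. Th1 cultures also received IL-12 and an antibody against IL-4, and Th2 cultures also received IL-4 and antibodies against IL-12 and IFN-γ. The effects of IL-4, of IL-12 blockade and of IFN-γ blockade on Th2 cultures therefore cannot be told apart. Another 4 libraries followed activated cells, 16 h into stimulation, through 0, 1, 2 and 4 h with actinomycin, an inhibitor of transcription, and the skewing condition of those cells is not given. The resting libraries carry another tag in their labels than the cultures, so preparation and activation cannot be told apart between them. Each time point of each condition was sequenced once, so p-values measure the spread between these libraries, which is not a spread between animals.

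Nearly all nucleated cells display peptides from their own cytosol on MHC class I molecules, where CD8+ T cells read them. The proteasome cuts the proteins, and on exposure to interferon the catalytic subunits Psmb8, Psmb9 and Psmb10 take the places of the constitutive Psmb5, Psmb6 and Psmb7. Tap1 and Tap2 together carry the peptides into the endoplasmic reticulum, Tapbp (tapasin) bridges the transporter to empty class I molecules, and a heavy chain pairs with B2m (β2-microglobulin) and peptide before it leaves for the cell surface. IFN-γ acts on many of these genes, in part through the transcription factor Irf1, and Nlrc5, itself induced by IFN-γ, is recruited to class I promoters as a coactivator.

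In the GENCODE M21 annotation of build GRCm38, 7 of the 10 genes lie in the MHC on chromosome 17. Tapbp spans chr17:33915899-33929292, H2-K1 chr17:33996017-34000347 and H2-D1 chr17:35262730-35267499. Between them lie Psmb9 (chr17:34181987-34187764), Tap1 (chr17:34187553-34197225), Psmb8 (chr17:34197721-34201454) and Tap2 (chr17:34203527-34216321). B2m is on chromosome 2 (chr2:122147686-122153083), and Nlrc5 (chr8:94434356-94527272) and Psmb10 (chr8:105935735-105938444) are on chromosome 8. Psmb9 and Tap1 run in opposite directions and share 212 exonic bases, where reads counted without strand cannot be told apart. Of the windows of 50 bases in the longest coding transcript of H2-K1, 8.79% also occurred in transcripts of other genes, most often those of H2-D1, and for H2-D1 the share was 14.3%, most often with H2-Q1. For Tapbp it was 21% and for Tap2 12.6%, mostly with the noncoding neighbours Gm19412 and Gm15821, and for Psmb9 12.5%, all of it with Tap1. B2m, Psmb10 and Nlrc5 shared no such window, so their reads could not be shared in this way.

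Promoter sequence was at hand for 8 of the 10 genes, in RefSeq windows of build GRCm38.p6 that run from 250 bases before a transcription start to 50 bases after it. Windows are shown for the heavy chains, the light chain, the transporter and an immunosubunit, since these groups differed in how far below the other conditions they stood in Th2 cultures. The windows are H2-K1 at chr17:34000298-34000597 on the minus strand, and on the plus strand H2-D1 at chr17:35262844-35263143, B2m at chr2:122147437-122147736, Tap1 at chr17:34187306-34187605 and Psmb8 at chr17:34197945-34198244. Capitals mark matches, on either strand, to the 5 motifs searched: GAAANNGAA (core of the interferon-stimulated response element), TTCNNNGAA (gamma-activated sequence), GGGNNTTCC (κB site), TGACG (half-site of the cyclic AMP response element) and CCAAT, which reads ATTGG on the other strand.
H2-K1: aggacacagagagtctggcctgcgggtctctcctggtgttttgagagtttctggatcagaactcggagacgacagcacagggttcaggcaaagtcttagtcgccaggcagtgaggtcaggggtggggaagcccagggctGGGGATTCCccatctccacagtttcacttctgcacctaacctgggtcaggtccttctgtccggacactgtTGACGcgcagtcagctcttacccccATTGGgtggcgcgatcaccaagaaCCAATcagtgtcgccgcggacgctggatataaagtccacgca
H2-D1: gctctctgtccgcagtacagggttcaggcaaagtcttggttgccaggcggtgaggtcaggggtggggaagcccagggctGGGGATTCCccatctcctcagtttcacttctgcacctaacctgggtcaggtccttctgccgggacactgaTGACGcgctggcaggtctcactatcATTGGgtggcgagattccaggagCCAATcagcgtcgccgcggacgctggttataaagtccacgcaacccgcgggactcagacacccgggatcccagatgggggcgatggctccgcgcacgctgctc
B2m: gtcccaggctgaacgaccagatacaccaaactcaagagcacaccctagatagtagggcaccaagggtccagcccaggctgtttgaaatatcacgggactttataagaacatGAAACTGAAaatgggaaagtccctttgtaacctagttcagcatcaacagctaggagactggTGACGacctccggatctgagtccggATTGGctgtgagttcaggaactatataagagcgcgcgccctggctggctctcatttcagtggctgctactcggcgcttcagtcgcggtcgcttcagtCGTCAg
Tap1: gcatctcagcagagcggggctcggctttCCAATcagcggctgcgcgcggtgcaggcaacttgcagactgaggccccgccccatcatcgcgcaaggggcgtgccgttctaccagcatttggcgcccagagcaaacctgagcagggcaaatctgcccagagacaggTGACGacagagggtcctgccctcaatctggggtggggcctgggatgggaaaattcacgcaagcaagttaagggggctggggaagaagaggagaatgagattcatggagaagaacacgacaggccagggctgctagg
Psmb8: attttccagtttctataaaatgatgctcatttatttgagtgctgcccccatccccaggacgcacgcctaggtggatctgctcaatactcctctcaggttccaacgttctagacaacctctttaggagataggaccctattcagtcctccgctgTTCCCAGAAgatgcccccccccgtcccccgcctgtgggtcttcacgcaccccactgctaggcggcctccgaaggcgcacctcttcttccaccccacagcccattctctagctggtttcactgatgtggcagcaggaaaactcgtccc
The κB letters occurred in the windows of H2-K1 and H2-D1, 2 of 8 genes, against 5.82% of the 32851 windows of all genes. The letters searched for the interferon-stimulated response element core, GAAANNGAA, occurred in B2m alone of the 8, against 8.56% of all windows. No other form of that element was searched for, so its absence from the other windows, H2-K1 and H2-D1 included, was not tested. The gamma-activated sequence occurred in Psmb8 alone, against 8.3%. TGACG was found for 5 of 8 genes (20.8% of all windows) and CCAAT for 6 of 8 (37.4%). In H2-K1, H2-D1 and B2m the ATTGG letters began 25 bases after TGACG on the same strand, an arrangement found in 0.0944% of all windows and looked for after the windows had been read. In both heavy chain windows the κB letters began 70 bases before TGACG. The Tap1 window overlaps that of Psmb9, which is read from the opposite strand. A match describes the letters and is not a measured binding site.

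The depth recovered from the table was 17512385 to 33017133 mapped reads in the time course and 18052931 to 25735543 in the actinomycin libraries. The lowest value of any of the 10 genes, Psmb10 at 17.8 RPKM after 4 h with actinomycin, stood for about 549 reads, so that counting error was small for all of them. All 8 T cell markers were detected in each library, Cd4 and Cd3e among them. The summed RPKM of 15 macrophage and monocyte markers was 930.2 and 945.7 in the resting libraries, 82.4 to 126 at 4 h and 19.5 to 27.8 at 24 h. The summed RPKM of 6 red blood cell genes went from 38690 and 42230 at rest to between 141 and 212 at 24 h, and that of 10 B cell markers from 87.4 and 97.6 to between 11.4 and 19.9. For 4 NK cell markers it went from 46.6 and 48 to between 5.35 and 8.17, and for 6 dendritic cell markers from 11.3 and 13.1 to between 3.24 and 4.55. The 2 CD8 T cell markers summed to 12.4 and 12.7 at rest and to between 7.44 and 11.9 at 24 h. Each of those markers was above 0 at rest and at 24 h in some library. Those cells also carry class I genes, and their part in differences from resting cells was not tested. Over all time points the same sums overlapped between the conditions, with macrophage and monocyte markers at 26.3 to 100 in Th0, 27.8 to 82.4 in Th1 and 19.5 to 126 in Th2 cultures. Since the sums fell with time in each condition, that overlap cannot show whether the conditions were alike at a given time. At 4 h the macrophage and monocyte sum was highest in the Th2 library (126) and lowest in the Th1 library (82.4), and at 24 h lowest in Th2 (19.5) and highest in Th1 (27.8).

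The 10 genes covered a wide range of levels in resting cells. On the RPKM scale, which is per length, B2m and H2-K1 stood highest, at 2398 and 2457 RPKM for B2m in the 2 resting libraries and at 2027 and 2123 RPKM for H2-K1, followed by H2-D1 at 1135 and 1191. Tapbp stood at 153 and 172 RPKM, Psmb8 at 136 and 142, Nlrc5 at 115 and 118, and Tap1 at 114 and 117. Psmb9 lay at 85.2 and 91.8 RPKM, Tap2 at 82.5 and 91.3, and Psmb10 was the least abundant, at 63.8 and 66. The order of Nlrc5 and Tap1, and that of Psmb9 and Tap2, was within the gap between the 2 libraries of a gene. Across all cultures the highest level of a gene was between 2.60 times its lowest for Psmb8 and 11.5 times for Nlrc5.

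**Figure D1:**
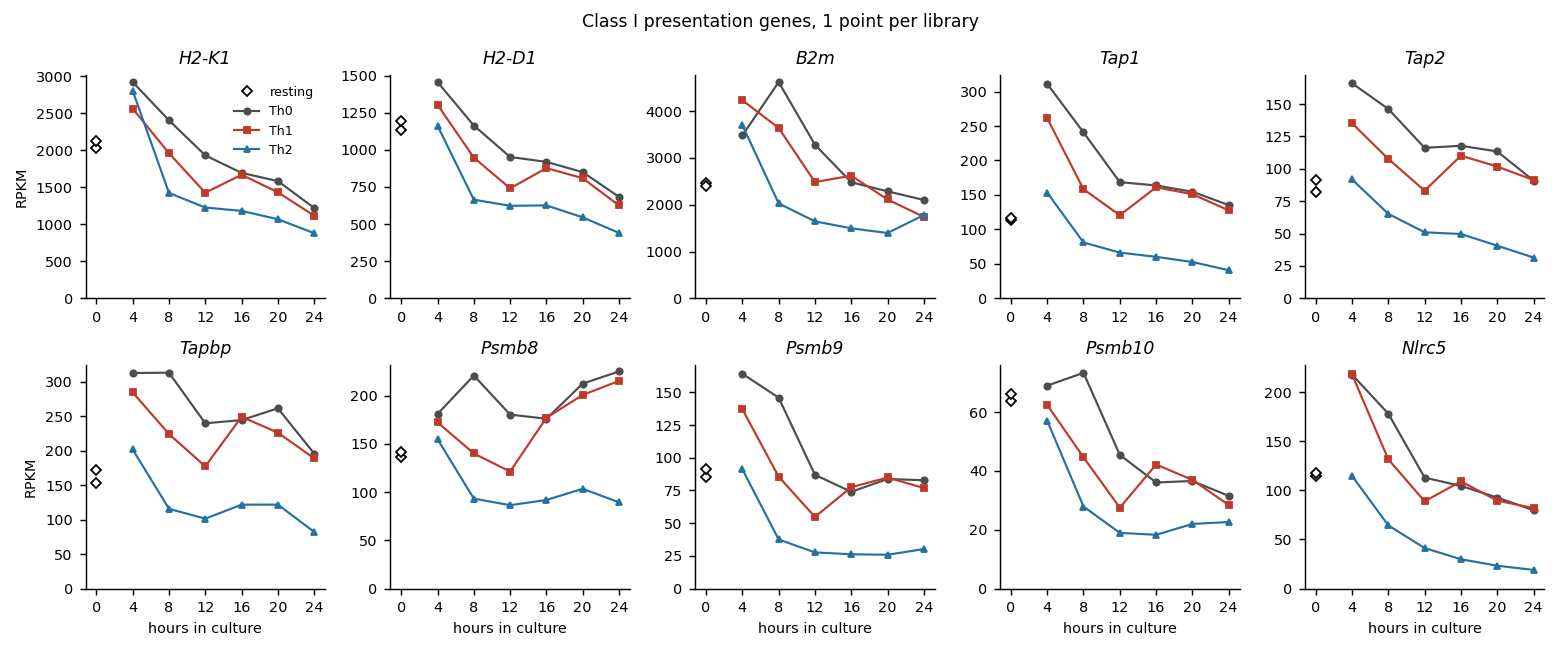
RPKM of the 10 class I presentation genes (y axis, from 0) against hours in culture (x axis), with the 2 resting libraries as open diamonds at 0 h and 1 point per library joined by lines for Th0 (grey circles), Th1 (red squares) and Th2 (blue triangles). For 8 of the 10 genes the Th2 library was the lowest of the 3 at all 6 time points, and in Th1 cultures all 10 genes dipped at 12 h.

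The largest differences between conditions set Th2 cultures apart from the others. All 10 genes were lower in Th2 than in Th0 cultures and lower in Th2 than in Th1 cultures at an adjusted p under 0.05 (limma on log2(RPKM + 0.5) with time point as a factor, Benjamini-Hochberg over 10737 genes), against 16.7% and 8.71% of all genes. With the further requirement of a change of at least 2-fold, which is the threshold used from here on, 5 of the 10 were lower in Th2 than in Th0 cultures (Nlrc5, Psmb9, Tap1, Tap2 and Tapbp) and 3 of the 10 in Th2 than in Th1 cultures (Nlrc5, Psmb9 and Tap1), against 1.83% and 1.39% of all genes tested. The median log2 difference of the 10 genes was -1.04 against Th0 and -0.81 against Th1, beside 0.00 and 0.02 for all genes tested. The Th2 library was the lowest of the 3 at all 6 time points for 8 of the 10 genes, against 7.84% of all genes, and the exceptions were H2-K1, lowest at 5 time points, and B2m, lowest at 4. The genes are not independent of each other, since they share libraries and most lie in the same locus.

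Nlrc5, the transactivator, showed the largest difference of the 10. In Th2 cultures it went from 115 RPKM at 4 h to 64.3 at 8 h, 41.2 at 12 h, 29.8 at 16 h, 23.2 at 20 h and 19 at 24 h. In Th0 cultures the same time points gave 218, 178, 113, 104, 92.6 and 79.7 RPKM, and in Th1 cultures 218, 132, 88.8, 109, 89.5 and 81.9 RPKM. Each Th2 library thus lay below the Th0 and Th1 libraries of its time point, with a gap of 1.90-fold at 4 h and of 4.20-fold (Th0) and 4.32-fold (Th1) at 24 h. The log2 difference was -1.61 ± 0.14 (SE) against Th0 (limma, adjusted p = 1.08e-06) and -1.48 ± 0.14 against Th1 (adjusted p = 2.47e-06). It also widened with time, by 0.05 log2 units an hour against Th0 and 0.07 against Th1, as described further on.

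Among the genes that load peptide, Tap1 fell furthest in Th2 cultures. Its 6 Th2 libraries held 153, 81.1, 66.4, 60.2, 52.8 and 40.8 RPKM from 4 to 24 h, its Th0 libraries 311, 241, 169, 164, 155 and 135 RPKM, and its Th1 libraries 261, 158, 121, 161, 151 and 128 RPKM. The Th2 libraries from 8 h on lay below every Th0 and Th1 library. The log2 difference was -1.44 ± 0.11 (SE) against Th0 (limma, adjusted p = 1.78e-07) and -1.19 ± 0.11 against Th1 (adjusted p = 1.44e-06). Its partner Tap2 ran from 31.5 to 91.8 RPKM in Th2 cultures with a median of 50.3, and from 91 to 166 with a median of 117 in Th0 cultures. The difference of Tap2 was -1.24 ± 0.11 against Th0 (limma, adjusted p = 8.38e-07) and, just short of 2-fold, -0.99 ± 0.11 against Th1 (adjusted p = 9e-06). Tapbp ran from 82.3 to 202 RPKM in Th2 cultures (median 119), from 196 to 313 in Th0 cultures (median 253) and from 177 to 285 in Th1 cultures (median 225). It was lower in Th2 than in Th0 cultures by a log2 difference of -1.11 ± 0.09 (limma, adjusted p = 6.83e-07), and its difference against Th1 was -0.89 ± 0.09.

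The immunoproteasome subunits did not fall evenly. Psmb9, whose promoter window overlaps that of Tap1, held 91.2, 37.5, 27.6, 26.2, 25.8 and 30.2 RPKM in the Th2 libraries from 4 to 24 h, against 164, 146, 87, 74, 83.8 and 82.8 RPKM in Th0. In Th1 cultures it held 137, 85.6, 54.8, 77.5, 84.9 and 76.9 RPKM. From 8 h on every Th2 library of Psmb9 was below every Th0 and Th1 library, and the log2 difference was -1.50 ± 0.13 (SE) against Th0 (limma, adjusted p = 1.08e-06) and -1.22 ± 0.13 against Th1 (adjusted p = 1.06e-05). Psmb8 ranged from 86.5 to 155 RPKM in Th2 (median 92.6), from 176 to 225 in Th0 (median 197) and from 121 to 215 in Th1 cultures (median 175), and its Th2 and Th0 libraries did not overlap. Its log2 difference of -0.97 ± 0.13 against Th0 (limma, adjusted p = 6.53e-05) fell just short of 2-fold. Psmb10 ranged from 18.3 to 57.1 RPKM in Th2 (median 22.3) and from 31.5 to 73.4 in Th0 cultures (median 41), with a difference of -0.84 ± 0.14 (adjusted p = 4.53e-04).

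The class I molecule itself differed least between Th2 cultures and the other conditions. H2-K1 held 2805, 1424, 1228, 1182, 1069 and 881 RPKM in Th2 libraries from 4 to 24 h, and 2923, 2406, 1932, 1696, 1585 and 1222 RPKM in Th0 libraries. In Th1 libraries it held 2564, 1962, 1427, 1671, 1434 and 1117 RPKM, so that at 4 h the Th2 library lay between the other conditions. The log2 difference of H2-K1 was -0.51 ± 0.09 (SE) against Th0 (limma, adjusted p = 8.25e-04) and -0.30 ± 0.09 against Th1 (adjusted p = 0.037). H2-D1 ranged from 440 to 1162 RPKM in Th2 (median 624), from 683 to 1456 in Th0 (median 935) and from 625 to 1303 in Th1 cultures (median 843), with a difference of -0.60 ± 0.07 against Th0 (adjusted p = 3.18e-05). B2m ranged from 1396 to 3701 RPKM in Th2 (median 1712) and from 2102 to 4620 in Th0 cultures (median 2881), with a difference of -0.63 ± 0.14 (adjusted p = 0.0034). The 95% intervals of the Th2 and Th0 differences of the heavy chains and B2m lay between -0.92 and -0.31, while those of Tap1, Psmb9 and Nlrc5 lay between -1.91 and -1.21.

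**Figure D2:**
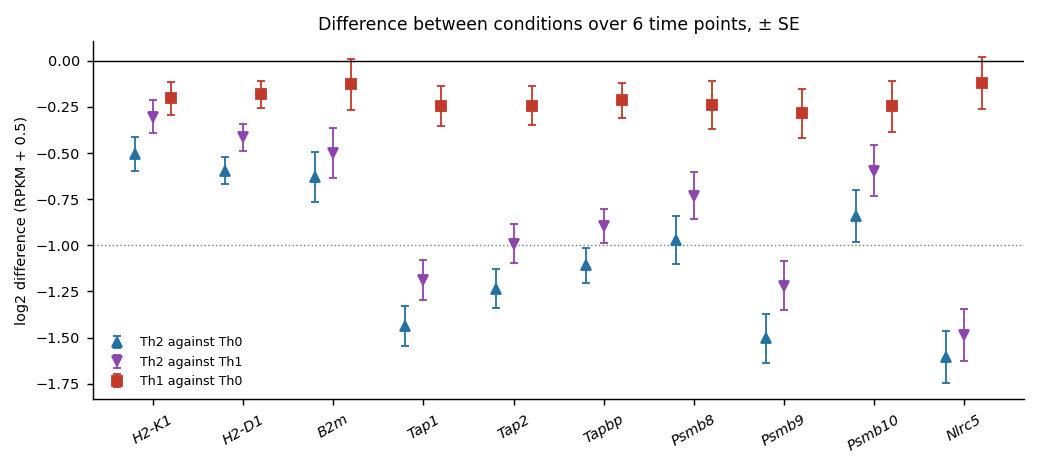
Log2 difference on the log2(RPKM + 0.5) scale (y axis) for each of the 10 genes (x axis) between Th2 and Th0 (blue), Th2 and Th1 (purple) and Th1 and Th0 cultures (red), each over 6 time points, with bars of 1 SE and a dotted line at a 2-fold decrease. Nlrc5 (-1.61), Psmb9 (-1.50) and Tap1 (-1.44) were lowest in Th2 against Th0, and the heavy chains and B2m lay closest to 0.

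Between Th1 and Th0 cultures none of the 10 passed the threshold in either direction (limma), against 0.494% of all genes, and 6 of the 10 were at an unadjusted p under 0.05. All 10 differences were below 0, from -0.28 (Psmb9) to -0.12 (Nlrc5), and the smallest adjusted p was 0.238, for H2-D1. The 95% interval of the Th1 and Th0 difference ran from -0.48 to -0.02 for Tap1, from -0.57 to -0.003 for Psmb9 and from -0.42 to 0.18 for Nlrc5, so that a change of 2-fold lay outside each. In Th1 cultures the level of all 10 genes at 12 h was below that at both 8 h and 16 h, against 32.4% of all genes, a pattern noticed after the values were seen. Tap1 went from 158 to 121 and back to 161 RPKM over those libraries, and Psmb9 from 85.6 to 54.8 and 77.5. Of the 10 genes, 2 had such a dip at 12 h in Th0 and 3 in Th2 cultures, close to the 25.3% and 23.8% of all genes. That Th1 library was the deepest of the time course, at 33017133 mapped reads, and the part of that library alone in the dip was not tested.

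Against resting cells, most of the genes stood higher at 4 h, and in Th2 cultures all 10 stood lower from 8 h on. At 4 h the Th0 library exceeded both resting libraries for 10 of the 10 genes, the Th1 library for 9 and the Th2 library for 6, against 43.4%, 40% and 41.1% of all genes. Relative to the resting mean, Tap1 stood at 2.70-fold in Th0, 2.26-fold in Th1 and 1.33-fold in Th2 cultures at 4 h, and Nlrc5 at 1.87-fold, 1.87-fold and 0.984-fold. At 8 h all 10 genes were below both resting libraries in Th2 cultures, while in Th0 cultures 9 were above both, against 50.1% and 42.9% of all genes. At 24 h the Th2 library was below both resting libraries for 10 genes, against 49.7% of all genes, and the Th0 and Th1 libraries for 6 each, against 47.7% and 46.9%. At that time the Th2 level was 0.163 of the resting mean for Nlrc5, 0.341 for Psmb9, 0.354 for Tap1, 0.425 for H2-K1 and 0.733 for B2m. In Th0 and Th1 cultures at 24 h, 3 and 4 genes were above both resting libraries, against 46.7% and 47.8% of all genes. Psmb8 stood highest there, at 1.62-fold of the resting mean in Th0 and 1.55-fold in Th1 cultures. Tapbp stood at 1.21-fold and 1.16-fold, and Tap1 at 1.17-fold and 1.11-fold.

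In the test over time, the cultures of the 3 conditions served as the libraries of a time point, so that the difference between conditions counted as spread. At 4 h against rest none of the 10 genes passed the threshold (limma, adjusted over 10897 genes), against 10.6% of all genes, and none was at an unadjusted p under 0.05. The largest difference at 4 h was that of Tap1, at 1.00 ± 0.62 (SE, log2, adjusted p = 0.233), which became 1.30 ± 0.19 (adjusted p = 3.17e-04) when the Th2 cultures were left out. None passed at 8 h either, against 18.9% of all genes, and again none was at an unadjusted p under 0.05. Psmb10 alone passed at 12, 16 and 20 h, by -1.16, -1.08 and -1.05, against 16.4%, 14.5% and 16.1% of all genes that were lower at these times. At 24 h H2-D1 (-1.02 ± 0.26, adjusted p = 0.00247) and Psmb10 (-1.24 ± 0.40, adjusted p = 0.0116) were lower than at rest, 2 of 10 against 17.4% of all genes. These shares did not set the 10 genes apart from other genes. Without resting replicate 1 Psmb10 was not called at any time, although its differences from 12 to 24 h were as large, from -1.26 to -1.08, with an SE of 0.52 in place of 0.40 since a lone resting library was left. Without resting replicate 2 neither Psmb10 (-1.21 to -1.03) nor H2-D1 (-0.99) was called. Psmb10 was also not called from 12 to 20 h without the Th1 cultures (-1.32 to -1.13) or without the Th2 cultures (-0.87 to -0.73, past the p threshold but under 2-fold), and at 24 h H2-D1 was the only call without the Th1 cultures and Psmb10 without the Th2 cultures.

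From 4 h to 24 h, a comparison within the cultures alone, 6 of the 10 genes fell, against 13.2% of all genes. They were Nlrc5 (-1.81 ± 0.65, SE, log2), H2-K1 (-1.38 ± 0.21), Tap1 (-1.37 ± 0.55), Psmb10 (-1.19 ± 0.35), H2-D1 (-1.18 ± 0.23) and B2m (-1.02 ± 0.29), with limma adjusted p-values from 3.26e-05 for H2-K1 to 0.0362 for Tap1. The mean of the 3 cultures went from 2764 to 1073 RPKM for H2-K1 and from 3804 to 1873 RPKM for B2m. Psmb9, Tap2 and Tapbp differed by -1.13, -0.99 and -0.85 and did not pass. Psmb8 was the exception, at a difference of -0.05 ± 0.39, with means of 170 RPKM at 4 h and 177 RPKM at 24 h. Without the Th1 cultures 2 of the 10 passed, H2-K1 and H2-D1, with the differences of Tap1 (-1.55), Nlrc5 (-2.005) and Psmb10 (-1.22) as large as before and that of B2m at -0.89. Without the Th0 cultures Tap1 (-1.46) and Nlrc5 (-1.99) did not pass. Macrophage and monocyte markers went from a sum of 82.4 to 126 RPKM at 4 h to between 19.5 and 27.8 at 24 h, and their part in these falls was not tested.

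The gap between conditions changed with time, at an adjusted p under 0.05, for Nlrc5 and Tap2. The difference between Th2 and Th0 cultures widened for Nlrc5 by -0.05 ± 0.01 log2 units an hour (SE, limma interaction, adjusted p = 0.0149), 1 of the 10 genes against 4.05% of all genes. Against Th1 cultures it widened for Nlrc5 by -0.07 ± 0.01 an hour (adjusted p = 0.00951) and for Tap2 by -0.05 ± 0.01 (adjusted p = 0.0124), 2 of the 10 genes against 0.81% of all genes. Tap2 was 1.47-fold higher in Th1 than in Th2 cultures at 4 h and 2.90-fold higher at 24 h. For the Th1 and Th0 difference none of the 10 changed with time (limma), against 0.0279% of all genes, and 1 of the 10 was at an unadjusted p under 0.05. Without the 20 h or the 24 h time point none of these interactions passed, although each was of about the same size, at -0.052 and -0.0607 an hour for Nlrc5 against Th0, -0.0647 and -0.0707 against Th1, and -0.0498 and -0.0484 for Tap2.

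The immunoproteasome subunits were also read against the constitutive subunits they replace, in a ratio within each library, which scaling of a whole library leaves as it is apart from the small pseudocount used in the test. At rest Psmb8 stood at 2.59 and 2.93 times Psmb5, Psmb9 at 1.05 and 1.14 times Psmb6, and Psmb10 at 0.692 and 0.775 times Psmb7. In Th2 cultures the ratio of Psmb8 to Psmb5 went from 1.65 at 4 h to 0.817, 0.54, 0.633, 0.686 and 0.612 by 24 h. In Th0 cultures it went from 2.91 to 2.61, 1.53, 1.49, 1.66 and 1.60, and in Th1 cultures from 2.87 to 1.25, 1, 1.36, 1.34 and 1.47. At every time point the Th2 library had the lowest ratio for each of the 3 pairs. The ratio of Psmb9 to Psmb6 ended at 0.193 in Th2, 0.434 in Th1 and 0.513 in Th0 cultures at 24 h, and that of Psmb10 to Psmb7 at 0.0879, 0.15 and 0.152.

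Over the 6 time points the ratios were lower in Th2 than in Th0 cultures by mean log2 differences of -1.31 ± 0.29 (SD, n = 6 time points) for Psmb8 over Psmb5, -1.71 ± 0.47 for Psmb9 over Psmb6 and -1.27 ± 0.44 for Psmb10 over Psmb7. Against Th1 cultures they were lower by -0.94 ± 0.23, -1.33 ± 0.30 and -0.83 ± 0.20. Each of these 6 comparisons had an exact two-sided sign-flip permutation p of 0.0312, the smallest that 6 pairs can give, and an adjusted p of 0.0352 over 9 tests. Th1 cultures were below Th0 cultures by -0.37 ± 0.40 for Psmb8 over Psmb5 and by -0.45 ± 0.48 for Psmb10 over Psmb7 (same exact p, lower at 6 of 6 time points), and by -0.38 ± 0.53 for Psmb9 over Psmb6 (exact permutation p = 0.188, lower at 4 of 6). All 3 constitutive subunits rose from rest to 24 h (limma): Psmb5 by 1.51 ± 0.18 (SE, log2), Psmb7 by 1.28 ± 0.21 and Psmb6 by 1.02 ± 0.16. Over the same span Psmb10 differed by -1.24, and Psmb9 (-0.61) and Psmb8 (0.23) did not pass the threshold. At 24 h Psmb8 stood at 1.62-fold and 1.55-fold of its resting mean in Th0 and Th1 cultures, and at 0.643-fold in Th2 cultures. In Th0 and Th1 cultures the fall of its ratio thus lay on the side of Psmb5. None of the 3 constitutive subunits differed past the threshold between Th2 and Th0 cultures, but their median log2 difference was 0.34. Psmb5 and Psmb7 were higher in Th2 than in Th0 libraries at every time point, and Psmb6 up to 16 h. Part of the gap in the ratios between Th2 and Th0 cultures thus lay on the constitutive side. Psmb8, Psmb9 and Psmb10 alone differed by -0.97, -1.50 and -0.84, each smaller in size than its ratio.

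**Figure D3:**
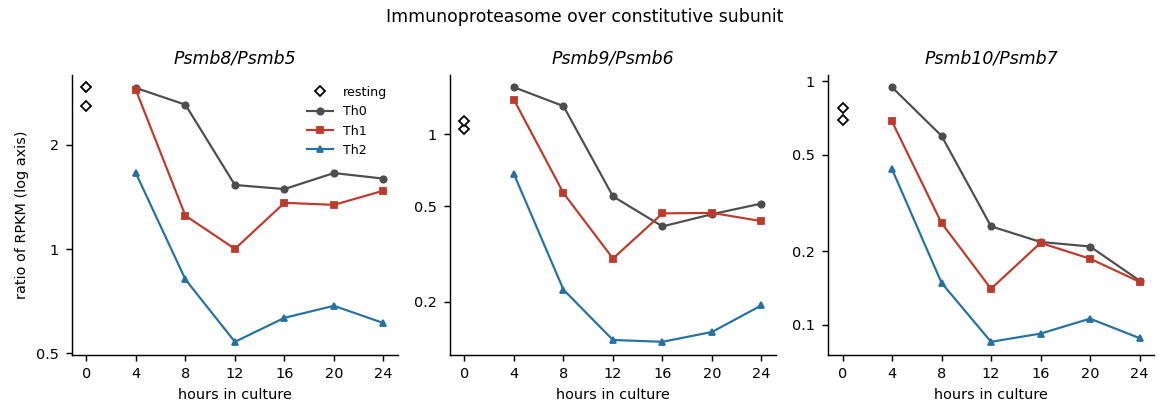
Ratio of RPKM of each immunoproteasome subunit to the constitutive subunit it replaces (y axis, logarithmic, with its own range in each panel) against hours in culture (x axis), for resting cells (open diamonds at 0 h), Th0 (grey), Th1 (red) and Th2 cultures (blue), 1 point per library. The Th2 line is the lowest at all 6 time points in each of the 3 panels, ending at 0.612, 0.193 and 0.0879.

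Other genes of the pathway were read from lists of its neighbours. Of 16 other class I heavy chains and class I-like genes, 11 could be tested between conditions, and 2 were lower in Th2 than in Th0 cultures, against 1.83% of all genes. These were Cd1d1, which presents lipids to NKT cells (-1.03 ± 0.14, SE, log2, limma adjusted p = 5.87e-05), and H2-T24 (-1.18 ± 0.13, adjusted p = 1.23e-05). The median of that list was -0.89 against Th0. None of its members passed against Th1, at a median of -0.54. At 24 h against rest 10 of its 12 tested genes were lower, against 17.4% of all genes, among them Mr1, which presents vitamin metabolites to MAIT cells (-2.32 ± 0.26), and the Qa-2 genes H2-Q6 (-1.79 ± 0.30) and H2-Q7 (-1.48 ± 0.35), whose sequences are nearly alike so that their reads may be split between them. No gene passed between Th2 and Th0 cultures among the 7 genes of peptide loading and trimming in the endoplasmic reticulum (median 0.22), the 9 proteasome activators and assembly factors (median 0.31) or the 6 cytosolic peptidases (median 0.18). Tapbpl, a tapasin relative in the loading list that is named here after its values were seen, came just short of 2-fold, at -0.99 ± 0.09 against Th0 (limma, adjusted p = 1.34e-06) and -0.98 ± 0.09 against Th1. Of those 9 activators and assembly factors, 7 rose from rest to 24 h, against 12.7% of all genes, among them the assembly factor Pomp (1.36 ± 0.19, limma adjusted p = 1.21e-05) and Psme3 (1.27 ± 0.23, adjusted p = 1.59e-04). Psme2, the interferon-inducible PA28β subunit, rose as well (1.10 ± 0.40, limma adjusted p = 0.0216). It went from 219 and 227 RPKM at rest to 610 in Th0, 577 in Th1 and 314 in Th2 cultures at 24 h. Its Th2 library was the lowest of the conditions at every time point.

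Of 16 genes tested upstream of class I transcription, 5 were lower in Th2 than in Th0 cultures, against 1.83% of all genes. Irf1, Stat2, Ifngr1 and Irf9 were among them. Against Th1 cultures 3 were lower in Th2, Ifng and Irf1 among them, beside 1.39% of all genes. The other genes of the list did not pass, and its median was -0.17 against Th0 and -0.20 against Th1. Ifng alone passed between Th1 and Th0 cultures, higher in Th1, against 0.494% of all genes in either direction. Irf1, which binds interferon response elements, stood at 175 and 174 RPKM in the 2 resting libraries. It held 643, 519, 334, 306, 262 and 219 RPKM in Th0 libraries from 4 to 24 h, 592, 331, 236, 304, 258 and 200 in Th1, and 232, 100, 75, 58, 46.8 and 42.4 in Th2 libraries. The Th2 level of Irf1 was below both resting libraries from 8 h on, and in Th1 cultures it dipped at 12 h as the class I genes did. The log2 difference was -2.20 ± 0.13 (SE) against Th0 (limma, adjusted p = 1.41e-08) and -1.96 ± 0.13 against Th1 (adjusted p = 4.97e-08). The difference of Irf1 between Th2 and Th0 cultures was larger in size than that of any of the 10 class I genes, the largest of which was the -1.61 of Nlrc5.

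Ifng itself did not follow that order. It held 206, 414, 451, 500 and 428 RPKM in Th1 libraries from 4 to 20 h and 388 at 24 h, against 14.9, 19.1, 46.2, 65, 75.1 and 94.5 in Th0 libraries. In Th2 libraries it held 60.5, 62.6, 71.4, 73, 75 and 66.2 RPKM. Ifng was thus 3.15 ± 0.26 log2 units higher in Th1 than in Th0 cultures (SE, limma, adjusted p = 8.68e-06), where the class I genes did not differ past the threshold, and at 4 h its Th2 library was above its Th0 library, where that of Tap1 was below. The transcript of Ifng does not measure the cytokine, which the antibody in Th2 cultures binds. NK cell markers summed to 20.4 to 32.5 RPKM in the cultures at 4 h, and the part of such cells in these Ifng levels was not tested.

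**Figure D4:**
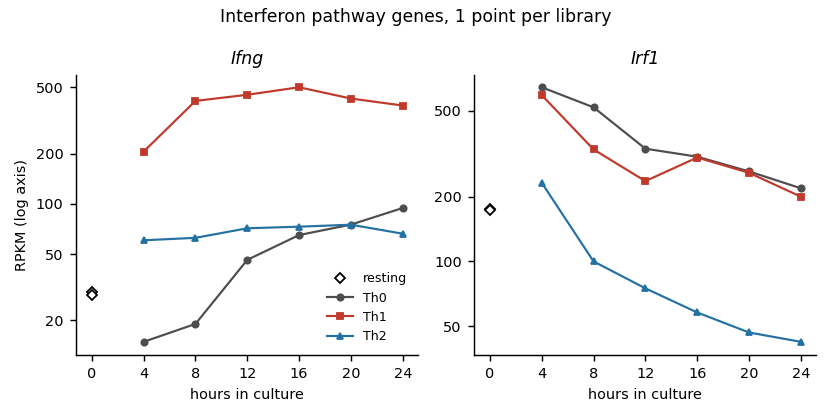
RPKM (y axis, logarithmic, with its own range in each panel) of Ifng and Irf1 against hours in culture (x axis) for resting cells (open diamonds at 0 h), Th0 (grey), Th1 (red) and Th2 cultures (blue), 1 point per library. Ifng was highest in Th1 cultures, while Irf1 was lowest in Th2 cultures at every time point.

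Over the 18 cultures the 10 genes rose and fell together to differing degrees. The Pearson correlation of a gene, on the log2(RPKM + 0.5) scale, with the mean of the other 9 was highest for Tap1 (r = 0.984), followed by Psmb9 and Nlrc5 (both 0.968), and lowest for Psmb8 (0.737), the gene whose level at 24 h was above that at 4 h in Th0 and Th1 cultures. Among pairs, Tap1 and Tap2 were most alike (0.988) and H2-K1 and Psmb8 least (0.464). The genes outside the list whose pattern was most like the mean of the 10 were Tlr1, Parp14, Dtx3l, Ifi35, Irf1, Tgtp1, Ly6e, Trim21, Gm12185 and Tgtp2, with r from 0.973 to 0.981 over the 18 cultures. Parp14 averaged 59.9 RPKM in Th0, 54.3 in Th1 and 16.6 in Th2 cultures, and Tgtp1, an interferon-inducible GTPase, 429, 339 and 89.8 RPKM. The cultures share their time points and conditions, so these correlations describe likeness and carry no test.

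After actinomycin 1 of the 10 genes rose relative to the other transcripts, and the other 9 did not change past the threshold. Values are relative to the mapped reads, so that a slope is relative to the other transcripts and not a rate of decay. Nlrc5 alone of the 10 rose at an adjusted p under 0.05, against 8.95% of all genes that did, so this count did not set the 10 genes apart from other genes. Its levels were 48.5, 39.9, 50.4 and 86.2 RPKM at 0, 1, 2 and 4 h, a slope of 0.24 ± 0.06 log2 units an hour (SE, limma, adjusted p = 7.35e-04). The last of the 4 libraries carried that slope, which was 0.03 without it. H2-D1 went from 591 to 693, 696 and 855 RPKM (slope 0.12 ± 0.07, adjusted p = 0.172). Psmb10 had the lowest slope of the 10, at -0.11 ± 0.06 (adjusted p = 0.204), with levels of 22.9, 26.2, 22.1 and 17.8 RPKM. The other 7 had slopes from -0.05 (Psmb8) to 0.09 (Tap2), the median of the 10 was 0.04, and that of all 10571 genes tested was 0.00.

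Of 16 genes tested upstream of class I transcription, 1 rose after actinomycin relative to all transcripts, Stat2, against 8.95% of all genes. Another 5 fell, Irf1, Irf2, Socs1 and Ifng among them, against 1267 of all 10571 genes tested. Irf1 fell by 0.35 log2 units an hour (limma, adjusted p = 1.31e-07). Of the constitutive subunits Psmb7 fell by 0.24 (adjusted p = 9.07e-04) and Psmb5 by 0.17 (adjusted p = 0.0227), so that the ratio of Psmb8 to Psmb5 stood at 0.749, 0.753, 0.739 and 1.03 at 0, 1, 2 and 4 h. Of 12 other class I and class I-like genes tested, 5 rose, again relative to all transcripts, against 8.95% of all genes. These were H2-Q6 (slope 0.26 ± 0.06, limma adjusted p = 1.64e-04), H2-Q7 (0.24 ± 0.06), H2-Q10 (0.32 ± 0.07), H2-Q4 (0.17 ± 0.06) and H2-T23 (0.15 ± 0.06). Before actinomycin, at 16 h, Tap1 stood at 85.8 RPKM, between the 60.2 of the Th2 library and the 161 and 164 of the Th1 and Th0 libraries at that time.

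**Figure D5:**
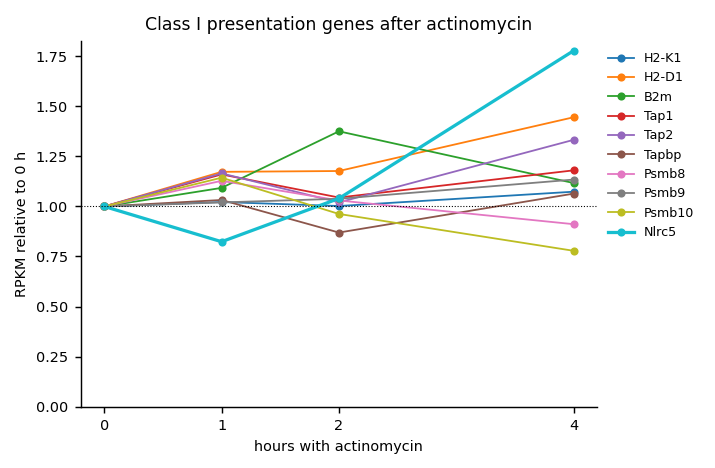
RPKM relative to the library at 0 h (y axis, from 0) of the 10 class I presentation genes against hours with actinomycin (x axis), 1 library per time point. Nlrc5 (thick line) rose from 48.5 to 86.2 RPKM between 0 and 4 h and Psmb10 ended lowest, at 17.8 RPKM.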

How the data were processed

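RNA from wild-type mouse spleen CD4+ T cells was sequenced in 24 libraries. The authors deposited RPKM values, read counts scaled to transcript length and mapped reads, for 22010 entries, 1 of them without a name. The submitters' processing notes name BWA and GRCm38, and the counting tool and annotation are not given in the sources used here. RPKM is relative, so a fall of abundant transcripts raises the others. Depth was recovered from the smallest steps between values, on which 728 of 1217 genes with a single transcript (59.8%) agreed within 0.1%; none of the 10 genes gave whole reads, so no count test was run.

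Values were fitted as log2(RPKM + 0.5) with limma 3.58.1 (R 4.3.3) with an intensity trend on genes whose mean over the libraries fitted reached 1 RPKM. Time was fitted on 20 libraries with 7 levels, condition on the 18 cultures with time point as a factor, the change of a condition difference with linear hours, and actinomycin with a slope over 4 libraries. The threshold was an adjusted p under 0.05 (Benjamini-Hochberg over all genes fitted) and, for differences, 2-fold. Fold changes on this scale are slightly understated for low genes. Subunit ratios were compared by exact sign-flip permutation (scipy 1.17.1). The fits were tested on simulated data. The 10 genes, the lists and the motifs were chosen with earlier results of these data known, and the text names the 10 genes, genes of the lists past the threshold, Psmb5, Psmb6, Psmb7, Ifng and Irf1, and the 10 genes most like the mean of the 10. Some items are not reported here. Other pseudocounts, filters, scalings, an untrended fit, subsets of libraries and leaving out each condition, time point or resting library were tried.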

Additional observations from a re-analysis of the deposited data

Results flagged for a closer look

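The effect of Th2 skewing changed over the 24 h for Nlrc5 and Tap2, by a test of the interaction itself (limma). For Nlrc5 the difference between Th2 and Th0 cultures moved by -0.0534 log2 units an hour, and that between Th2 and Th1 cultures by -0.066 an hour. For Tap2 the difference between Th2 and Th1 cultures moved by -0.0504 an hour. With the 20 h or the 24 h libraries left out, none of the 3 passed the threshold, at values of about the same size (-0.052 and -0.0607 for Nlrc5 against Th0, -0.0647 and -0.0707 against Th1, and -0.0498 and -0.0484 for Tap2).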

How the results depend on the processing

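Of 913 gene values recomputed under an alternative, 848 stayed on the same side of 0 and of the threshold, and none of the 9 that changed sign had passed it. Of 235 recomputed counts and subunit ratios, 202 were much as before (counts within 1.5 times, ratios of the same call or within 1 SD). The counts between conditions held best: 5 or 6 genes lower in Th2 than in Th0 cultures and 3 or 4 lower than in Th1 under every alternative tried. Th2 was lowest at all 6 time points for 8 genes with median-of-ratios scaling and 10 with quantile normalization. With only the libraries compared, 1 gene (Tap1) passed at 4 h against rest. With median-of-ratios scaling 0 passed at 20 h and 1 at 24 h against rest, and 2 widened with time against Th0. With quantile normalization 0 widened against Th0 and 1 against Th1. That normalization moved the median of all genes at 24 h to 0.114, from -0.04. Leaving out a condition or a resting library, counts against rest ran from 0 to 1 at 4, 12, 16 and 20 h and from 0 to 3 at 24 h, and from 2 to 6 for 24 h against 4 h. Leaving out a time point, counts of changing differences ran from 0 to 3 against Th0 and 0 to 4 against Th1, and leaving out an actinomycin library, from 0 to 1. Of the values that changed sign, Psmb10 at 4 h against rest was 0.0271 with median-of-ratios scaling and -0.119 to 0.0172 when conditions were left out, and Psmb8 was -0.0511 at 24 h against rest with quantile normalization and 0.0138 for 24 h against 4 h with median-of-ratios scaling. Leaving out conditions gave Psmb8 -0.00196 to 0.66 at 24 h and -0.24 to 0.32 for 24 h against 4 h, and at 24 h against rest Tap1 -0.67 to 0.19, Tap2 -0.69 to 0.0706 and Tapbp -0.38 to 0.25. The cause was not tested. Ratios without a time point kept their sign, and 5 pairs cannot reach an exact permutation p under 0.0625. No block by replicate number could be fitted, since only the resting libraries carry such numbers; the conditions were paired by time point instead.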
